A study of Mus musculus with 14 samples.

Results

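The R-loop resolution factors are 9 genes whose products prevent, unwind or digest RNA-DNA hybrids: Top1, Rnaseh1, Rnaseh2a, Rnaseh2b, Rnaseh2c, Dhx9, Aqr, Xrn2 and Ddx39b. They were chosen by name, as all rows of the deposited transcript table that carry 1 of these symbols, which gave 9 of 54446 genes and 57 of 137767 transcripts. The 14 RNA-seq libraries, in 6 groups, came from hepatocytes of C57BL/6 mice with or without the splicing factor SRSF1. In the hepatocyte knockout (HKO) the animals were srsf1f/f;albcre+/-, so that Cre driven by the albumin promoter deleted Srsf1, and their controls were albcre+/- and carried no floxed allele by their label. Both were sampled at postnatal day 10 (P10) and at 1 month, with 2 libraries per group. In the acute knockout (acHKO) all animals were srsf1f/f and received, at 8 weeks of age, an AAV8 virus with the hepatocyte TBG promoter driving either iCre or GFP. They were sampled 2 weeks later, at 10 weeks, with 3 libraries per group. Differences between the floxed and the unfloxed line at P10 and 1 month, and effects of iCre itself in the acute model, cannot be told apart from the loss of Srsf1. The labels do not say that replicates were separate animals, so p-values measure only the spread between these libraries.

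An R-loop forms when nascent RNA pairs again with its DNA template behind RNA polymerase and leaves the other DNA strand single. Topoisomerase I (Top1) relieves the negative supercoiling that favours this pairing, and the RNA helicase UAP56 (Ddx39b) packages new RNA into export particles. The helicases DHX9 and Aquarius (Aqr) unwind RNA-DNA structures, Aquarius also binding introns inside the spliceosome. RNase H1 (Rnaseh1) and RNase H2, a complex of the catalytic subunit A (Rnaseh2a) and the accessory subunits B and C (Rnaseh2b, Rnaseh2c), cut the RNA strand of a hybrid, and the exonuclease XRN2 degrades the RNA left on the template after cleavage at a gene's end. SRSF1 is itself known for keeping R-loops from forming, through its binding to nascent RNA.

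Values are TPM, each transcript's length-corrected share of its library, and gene values are sums over a gene's transcripts. Sequencing depth is unknown because TPM do not keep it. Srsf1 was lower in each knockout library than in each control library of its comparison, its mean standing at 59.3% of control for P10, 39.2% for 1 month and 16.8% for the acute model. Fold changes are on the log2(TPM + 1) scale. They are also given relative to the median gene of the same fit, because that median itself moved by 0.25 for P10, -0.001 for 1 month and -0.36 for acute deletion. A gene was called when its limma adjusted p, over all genes tested, was below 0.05. Every p tests the log2 difference as it stands, before the median gene is subtracted, and no p belongs to a relative difference. The P10 HKO replicate 2 library held 74.7 TPM of Xist and a sum of 0.144 TPM of 4 Y-linked genes, and each other library held at least 24.9 TPM of those 4 genes. Mitochondrially encoded genes took 33.5 to 42.9% of all TPM in the acHKO libraries and 11.8 to 16.1% in the GFP libraries, and 35.8 to 50.6% in the 1 month HKO against 26.04 to 31.2% in its controls.

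The clearest difference among the 9 genes lay in the transcripts of Rnaseh2c (ENSMUSG00000024925.10, chromosome 19, 5601873 to 5607019, plus strand, GRCm38). Its coding transcript Rnaseh2c-201 joins 4 exons, and 2 of the annotated retained-intron transcripts hold all or part of intron 2. Rnaseh2c-202 reads through introns 2 and 3 whole, while Rnaseh2c-203 is a fragment of 271 bases that starts inside intron 2, keeps its last 40 bases and then splices out intron 3. The sequences of this stretch are shown because Rnaseh2c-202 and Rnaseh2c-203 differ from Rnaseh2c-201 here. Rnaseh2c-203 holds neither exon 2 nor the start of intron 2, so its level does not show whether the whole intron is kept. Capitals mark the motif GGAGA in exon 2 and the first and last bases of the introns, GT and AG.
Rnaseh2c exon 2, chr19:5602193-5602374 (+): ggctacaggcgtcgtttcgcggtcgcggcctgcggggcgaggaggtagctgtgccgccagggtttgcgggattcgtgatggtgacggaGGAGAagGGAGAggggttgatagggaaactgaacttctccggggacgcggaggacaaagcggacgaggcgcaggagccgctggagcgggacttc
Rnaseh2c intron 2, chr19:5602375-5602449 (+): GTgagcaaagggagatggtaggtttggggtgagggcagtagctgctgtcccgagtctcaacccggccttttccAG
Rnaseh2c exon 3, chr19:5602450-5602569 (+): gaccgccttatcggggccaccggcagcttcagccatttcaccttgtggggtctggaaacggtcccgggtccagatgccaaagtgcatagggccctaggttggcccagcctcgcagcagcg
Rnaseh2c intron 3, chr19:5602570-5602823 (+): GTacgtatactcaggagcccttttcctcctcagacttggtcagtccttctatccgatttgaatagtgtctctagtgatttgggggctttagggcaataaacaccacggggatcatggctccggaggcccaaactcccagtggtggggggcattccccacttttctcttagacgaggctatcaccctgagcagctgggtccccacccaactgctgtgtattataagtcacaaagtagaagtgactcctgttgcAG

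Intron 2 is 75 bases long and intron 3 is 254 bases long, with GC contents of 58.7% and 51.6%. The reading frame of Rnaseh2c-201 has 354 coding bases before intron 2. Read on into the intron, it meets the stop codon TAG at base 19 of the intron. Rnaseh2c-203, which holds only the last 40 bases of intron 2, starts after this stop codon and does not contain it. The motif GGAGA, which SRSF1 is known to bind, was searched on the transcribed strand only. It occurs 2 times in exon 2, 1 time in intron 2 and 0 times in exon 3, and 32.4% of 49127 transcript windows as long as exon 2 held it at least 1 time. GAAGAA, another purine-rich motif known for SRSF1, occurs 0 times in these 4 pieces, and 15.2% of the same windows held it. A match is a description of these letters and not a binding site.

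**Figure D1:**
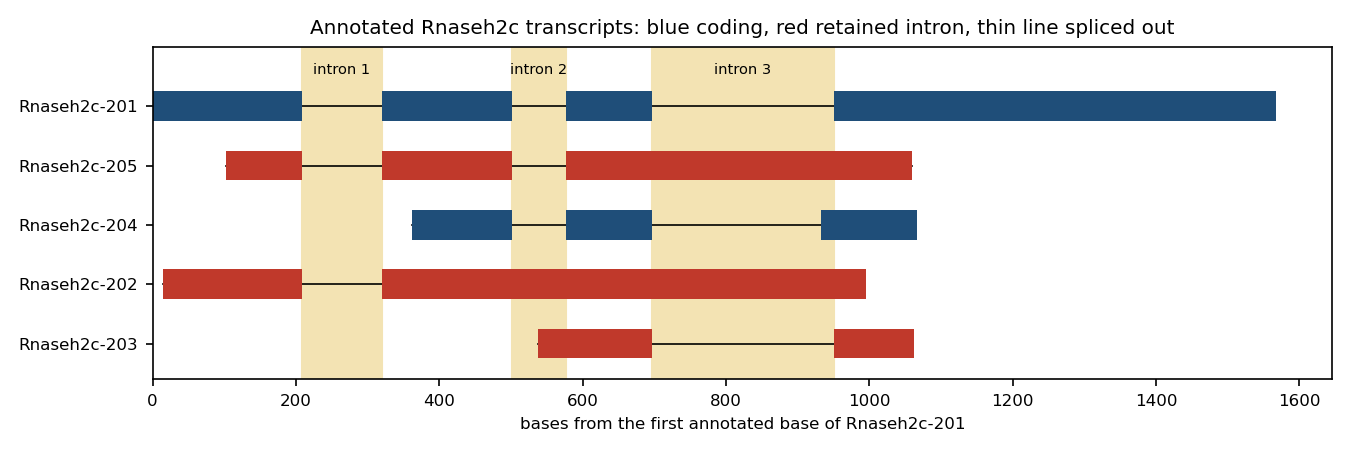
Map of the 5 annotated Rnaseh2c transcripts, with the distance in bases from the first base of Rnaseh2c-201 on the x axis. Boxes are exons (blue, coding; red, retained intron), thin lines are spliced-out introns and shaded bands are the 3 introns of Rnaseh2c-201. Rnaseh2c-202 runs through introns 2 and 3, and Rnaseh2c-203 starts within intron 2.

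After acute deletion the coding transcript Rnaseh2c-201 took a smaller share of Rnaseh2c, and retained-intron transcripts a larger one. Rnaseh2c-201 measured 11.2, 12.2 and 14.6 TPM in the GFP libraries and 4.78, 4.99 and 3.30 TPM in the acHKO libraries, with no overlap, and its mean was 34.5% of the GFP mean. Rnaseh2c-203 measured 0, 0.364 and 0.552 TPM in the GFP libraries and 3.79, 4.17 and 5.53 TPM in the acHKO libraries. As shares of the gene's TPM, Rnaseh2c-201 went from 92.5% ± 3.01 (SD, n = 3) to 42.5% ± 8.85 (SD, n = 3) and Rnaseh2c-203 from 2.05% ± 1.80 to 43.9% ± 9.05. The test of transcript usage, diffSplice in limma, took transcripts of at least 1 TPM and 5% of their gene, and a gene was called at an adjusted p below 0.05 with a share that differed by at least 10 percentage points. Rnaseh2c was called (difference in the share of Rnaseh2c-201 of -50.0 percentage points, adjusted p = 6.03e-07, lower in 3 of 3 acHKO libraries). It was called under each alternative run. Usage differed in many genes in this model: 35.5% of 3415 genes tested were called, and among the 3 testable genes of the 9 the called genes were Rnaseh2c and Rnaseh2a.

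The gene total of Rnaseh2c did not show these opposite changes of its transcripts. It measured 11.7, 13.2 and 16.3 TPM in the GFP libraries and 10.3, 10.3 and 10.2 TPM in the acHKO libraries, and its log2 difference of -0.38 (SE 0.19) did not pass the test (limma adjusted p = 0.127). Relative to the median gene the difference was -0.01. Because Rnaseh2c-203 is short, the mean annotated length of an Rnaseh2c transcript, weighted by TPM, was 1093 ± 18.7 bases (SD, n = 3) with GFP and 713 ± 74.7 bases in acHKO. Weighted by length, the acHKO mean was 48.8% of the GFP mean, against 74.8% in TPM. In the authors' deposited table the gene's log2 fold change was -0.11 (adjusted p = 0.579).

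The level of Rnaseh2c-203 set the GFP libraries apart from all 11 others rather than knockouts from controls. Its share was 25.9 and 26.5% in the P10 controls, 25.02 and 45.8% in the P10 HKO, 28.2 and 35.8% in the 1 month controls and 31.8 and 38.4% in the 1 month HKO, against 0 to 3.39% with GFP and 36.9 to 54.1% in acHKO. Each of its 31-base words also occurs in other Rnaseh2c transcripts, so its estimate rests on how reads were divided among them. The 172 annotated retained-intron transcripts of at least 200 and under 300 bases summed to 62.2 to 144.6 TPM in the GFP libraries, 119.5 to 140.8 TPM in acHKO and 145.2 to 220.6 TPM in the other groups. The part of this in the result was not tested.

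Rnaseh2c-202, which keeps introns 2 and 3 whole, had a higher share in the knockouts in all 3 comparisons without overlap. It has 64 words of its own among 839, so its estimate also rests in part on how reads were divided. Its share was 2.86 and 3.52% in the P10 controls and 6.91 and 7.95% in the P10 HKO. At 1 month it was 4.32 and 2.97% in the controls and 9.91 and 10.5% in the HKO. In the acute model it was 3.52, 3.8 and 5.78% with GFP and 14.5, 9.95 and 11.7% in acHKO, and its mean level was 0.618 TPM with GFP and 1.24 TPM in acHKO. Of 3816 retained-intron transcripts compared in the same way, 4.3% were higher without overlap in all 3 comparisons. Rnaseh2c-202 was singled out after its values were seen and lay below the level of the usage test, so these values are a description; exact permutation tests over samples could not go below p = 0.333 with 2 against 2 libraries or 0.10 with 3 against 3. The share of Rnaseh2c-201 was lower without overlap in all 3 comparisons, as was the case for 3.76% of 23295 transcripts. At P10 it was 67.2 and 65.6% in controls and 65.0 and 44.6% in HKO. The remaining retained-intron transcript, Rnaseh2c-205, has 0 words of its own and went the other way from Rnaseh2c-202. Its mean was 0.218 TPM in the P10 HKO against 0.489 TPM in control. The 1 month HKO held 0.232 TPM against 0.464 TPM, and acHKO 0.127 TPM against 0.155 TPM with GFP. Its share was lower without overlap for P10 only. Whether reads were exchanged between these transcripts was not tested.

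**Figure D2:**
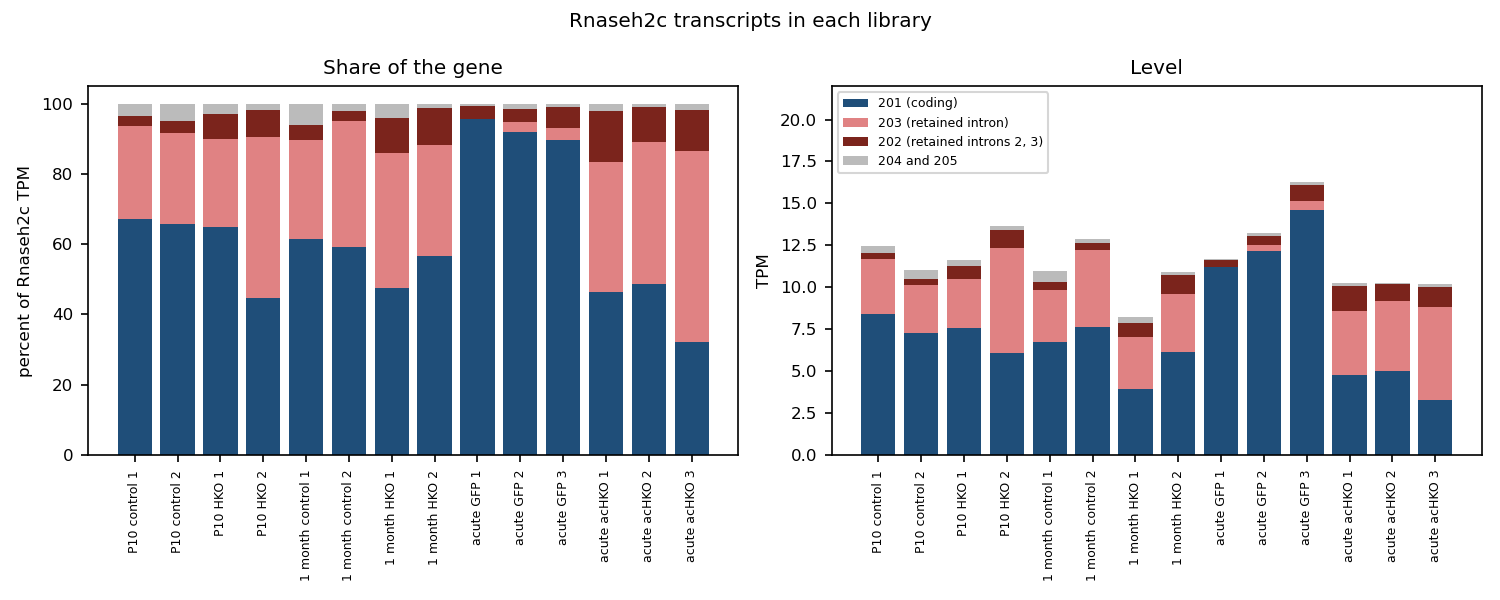
Rnaseh2c transcripts in each of the 14 libraries, as a percentage of the gene's TPM (left) and in TPM (right); each bar is 1 library and colours are transcripts. The 3 GFP libraries consist almost wholly of the coding Rnaseh2c-201 (89.7 to 95.7%), and the 3 acHKO libraries hold 32.3 to 48.6% of it.

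The genes for the other RNase H2 subunits fell at the gene level after acute deletion, as did those for DHX9 and topoisomerase I. Of the 9 genes, 4 were called lower and 0 higher by limma, and 4 had an unadjusted p under 0.05. Over all 9963 genes tested 40.7% were called, and 34.8% were called lower (27.5% after median-ratio rescaling), so that a count of 4 of 9 is near this background. All genes gave 591 higher and 3467 lower calls as deposited, and 1391 and 2730 after median-ratio rescaling; the same 4 genes were called lower in both. Groups did not overlap for 5 of the 9 genes, all lower in acHKO, against 53.7% of all genes in either direction and 47.1% lower. In bulk samples fewer cells of a type and less RNA per cell cannot be told apart.

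Dhx9 (ENSMUSG00000042699.11, chromosome 1, 153455758 to 153487660, minus strand), the helicase, had the largest difference. It measured 16.1, 17.9 and 23.2 TPM in the GFP libraries and 7.95, 8.02 and 7.14 TPM in acHKO. The groups were far apart, and the acHKO mean was 40.4% of the GFP mean. Its log2 difference was -1.19 (SE 0.20, limma adjusted p = 0.000258), or -0.83 relative to the median gene. After median-ratio rescaling its adjusted p was 0.00112, and it was called under each alternative run.

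Rnaseh2a (ENSMUSG00000052926.16, chromosome 8, 84956610 to 84969767, minus strand), the catalytic subunit, measured 8.39, 9.77 and 12.4 TPM with GFP against 5.16, 4.57 and 4.97 TPM in acHKO. Each acHKO library lay below each GFP library, at 48.1% of the GFP mean (log2 difference -0.91, SE 0.20, limma adjusted p = 0.00213). Relative to the median gene this was -0.55, and the adjusted p after median-ratio rescaling was 0.00184. Of its 31-base words 14.9% also occur in other genes on the same strand, among them Gm15703 and THSD8, so its level is uncertain to that extent; both of these genes were at 0 in all 6 acute libraries. Rnaseh2a was also called in transcript usage: the full coding transcript Rnaseh2a-201 held 34.6, 37.9 and 33.2% of the gene with GFP and 23.9, 24.9 and 18.6% in acHKO (difference -12.8 percentage points, diffSplice adjusted p = 0.0341). This call was lost when GFP replicate 2 or any 1 of the 3 acHKO libraries was left out, with adjusted p up to 0.17.

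Rnaseh2b (ENSMUSG00000021932.13, chromosome 14, 62292589 to 62372992, plus strand), the subunit that binds the clamp PCNA, measured 3.42, 3.42 and 3.97 TPM with GFP against 1.52, 1.97 and 1.31 TPM in acHKO. The groups did not overlap and the acHKO mean was 44.3% of the GFP mean (log2 difference -0.83, SE 0.19, limma adjusted p = 0.00331). Relative to the median gene this was -0.47, with an adjusted p of 0.0115 after median-ratio rescaling. Top1 (ENSMUSG00000070544.6, chromosome 2, 160645888 to 160722764, plus strand) measured 19, 24.2 and 25.03 TPM with GFP against 13.8, 11.9 and 8.30 TPM in acHKO. It was 49.8% of the GFP mean, again without overlap (log2 difference -0.96, SE 0.21, limma adjusted p = 0.00242). That is -0.60 relative to the median gene, and the rescaled adjusted p was 0.018. In the authors' deposited table these 4 genes were also the ones called, all lower, with log2 fold changes of -1.0 for Dhx9, -0.74 for Rnaseh2a, -0.88 for Rnaseh2b and -0.71 for Top1, where 32.5% of 21442 genes with an adjusted p were called.

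When TPM were rescaled without the mitochondrially encoded genes, whose share differs between these groups, 1 of the 9 genes was called lower, Dhx9 (limma adjusted p = 0.0143), and 7.84% of all genes were. Top1, Rnaseh2a and Rnaseh2b then had limma adjusted p of 0.0882, 0.099 and 0.069. Leaving out GFP replicate 1 added Rnaseh2c and Aqr and gave 6 lower calls. Summed hepatocyte markers, albumin included, ran from 38223 to 49532 TPM with GFP and from 30183 to 46686 TPM in acHKO. Of the 7, 4 were called lower: Hnf4a (-1.26 relative to the median gene), Cps1 (-0.91), Serpina1a (-0.56) and Fah (-0.33), the first 2 also after median-ratio rescaling. The erythroid gene Alas2 was called lower (-1.45) under both scalings and the stellate marker Dcn higher (1.67) in the deposited TPM alone. Summed Kupffer cell and macrophage markers ran from 2.36 to 6.04 and from 3.89 to 22.2 TPM, with both of the 2 tested genes of 7 called higher, Clec4f by 1.34 and Vsig4 by 1.21 on the relative log2 scale; after median-ratio rescaling 0 of the 2 were called. Their part in these differences was not tested.

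**Figure D3:**
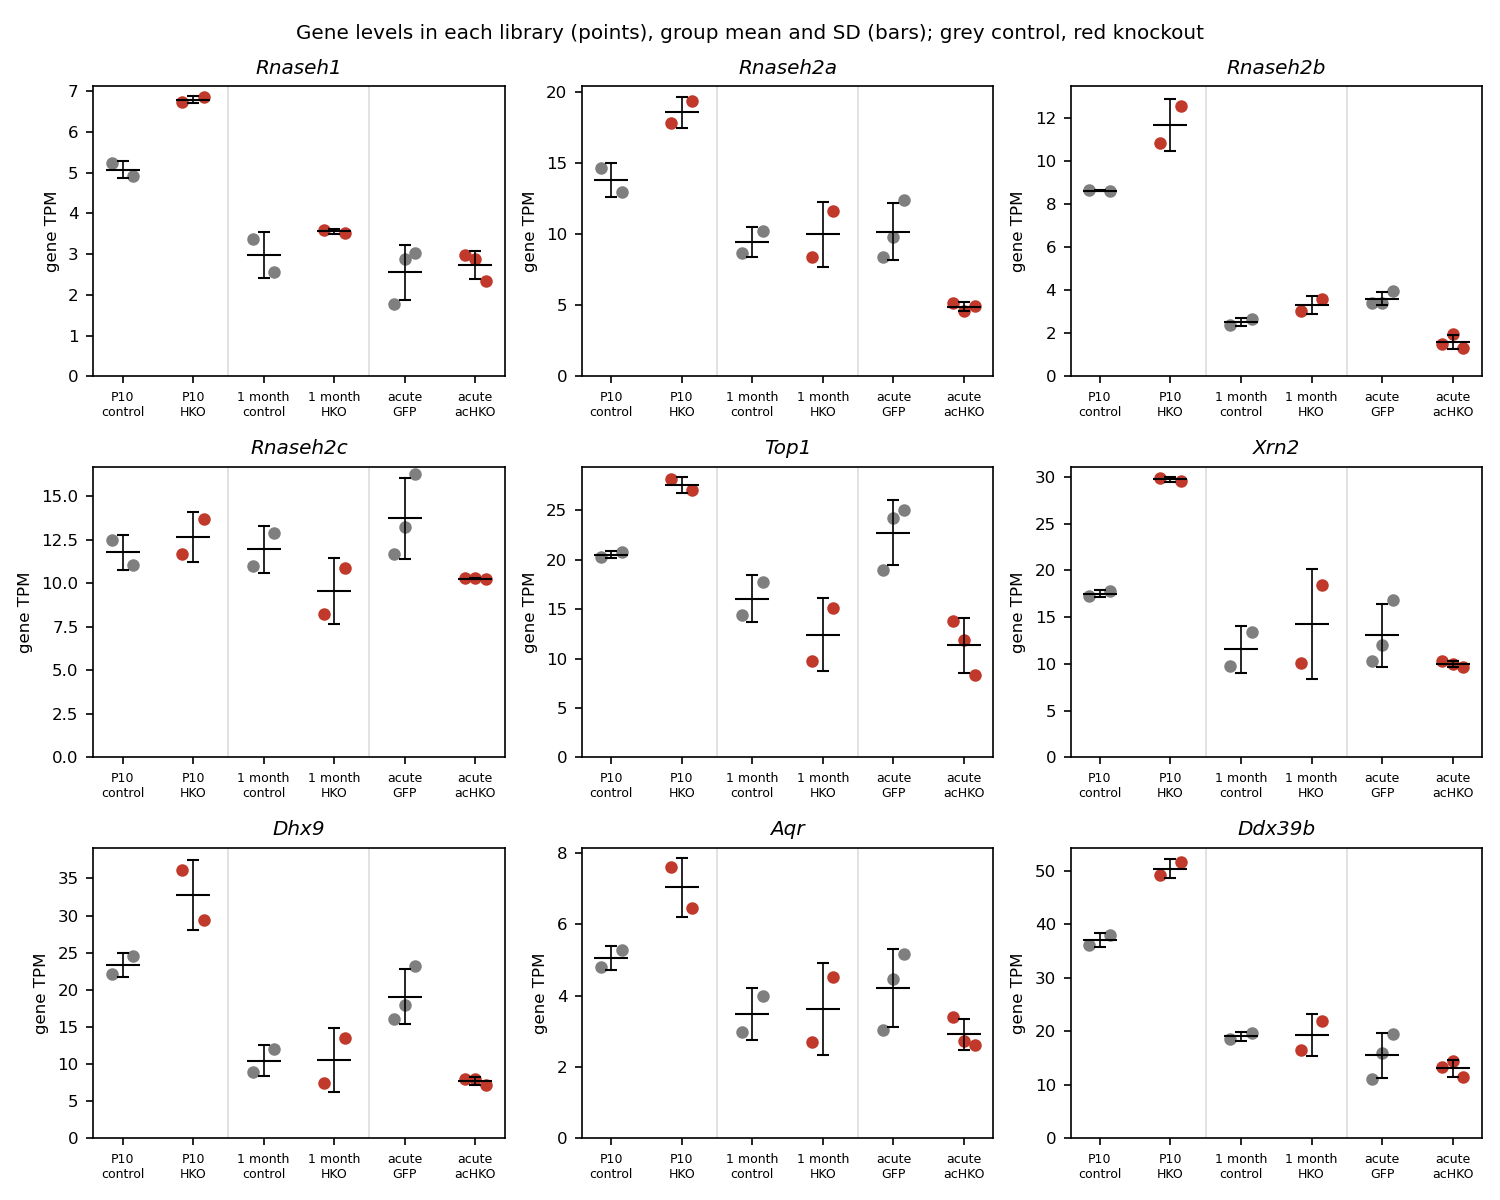
TPM of each of the 9 genes (y axes start at 0) in each library, by group on the x axis; points are libraries (grey, control; red, knockout), horizontal bars are means and error bars are SD. The acHKO points lie below all GFP points for Dhx9, Rnaseh2a, Rnaseh2b, Top1 and Rnaseh2c, and the P10 HKO points lie above the P10 control points for 8 genes.

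The other 4 genes were not called in the acute model. Xrn2 (ENSMUSG00000027433.5, chromosome 2, 147012996 to 147078000, plus strand) measured 10.3, 12.0 and 16.9 TPM with GFP against 10.3, 9.99 and 9.65 TPM in acHKO, groups that overlapped (log2 difference -0.33, SE 0.21, limma adjusted p = 0.206; 0.03 relative to the median gene). Aqr (ENSMUSG00000040383.16, chromosome 2, 114101170 to 114187024, minus strand) measured 3.04, 4.46 and 5.17 TPM with GFP against 3.41, 2.73 and 2.62 TPM in acHKO (-0.40, SE 0.21, adjusted p = 0.133 by limma; -0.04 relative). Ddx39b (ENSMUSG00000019432.15, chromosome 17, 35241746 to 35253707, plus strand) measured 11.1, 16 and 19.4 TPM with GFP against 13.4, 14.5 and 11.4 TPM in acHKO (-0.20, SE 0.22, adjusted p = 0.470 by limma; 0.16 relative). The groups of these 3 genes overlapped, although for Xrn2 and Aqr acHKO replicates 2 and 3 lay below every GFP library. Rnaseh1 (ENSMUSG00000020630.9, chromosome 12, 28649602 to 28659589, plus strand), the single-subunit RNase H, measured 1.78, 2.87 and 3.02 TPM with GFP against 2.98, 2.88 and 2.34 TPM in acHKO. Its groups overlapped and its log2 difference was 0.08 (SE 0.21, limma adjusted p = 0.758), or 0.45 relative to the median gene; after median-ratio rescaling its adjusted p was 0.0605.

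Retained-intron transcripts took a larger share of several of these genes after acute deletion. Their summed share was higher in acHKO without overlap for 5 of the 8 genes that have such transcripts: Rnaseh2c (7.54 to 57.2%), Rnaseh2a (26.3 to 35.4%), Rnaseh1 (18.4 to 25.5%), Top1 (1.26 to 4.73%) and Rnaseh2b (0.410 to 1.57%). For 1 gene, Ddx39b, it was lower (28.6 to 22.8%), and Xrn2 and Dhx9 overlapped. Among 6057 genes with annotated retained-intron transcripts, 33.4% were higher and 7.02% were lower without overlap. These shares have no test of their own beside that of transcript usage. For 2 of the genes they rest on low levels. Retained-intron transcripts of Rnaseh2b summed to 0.0096 to 0.026 TPM with GFP and 0.022 to 0.030 TPM in acHKO. Its mean coding level went from 3.56 to 1.55 TPM. For Top1 they summed to 0.154 to 0.400 and 0.329 to 0.759 TPM, and its mean coding level went from 22.4 to 10.8 TPM. For Rnaseh2a the larger share went with a lower level. Its retained-intron transcripts summed to 2.10 to 3.36 TPM with GFP and 1.43 to 1.92 TPM in acHKO. Its mean coding level went from 7.28 to 3.13 TPM. Those of Rnaseh1 summed to 0.308 to 0.691 and 0.653 to 0.718 TPM, and those of Rnaseh2c to 0.503 to 1.67 and 5.28 to 6.92 TPM.

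The share of the retained-intron transcript Ddx39b-204 went the other way from Rnaseh2c-202 in all 3 comparisons. It was 24.2 and 23.4% in the P10 controls and 20.8 and 17.4% in the P10 HKO, 31.3 and 29.3% in the 1 month controls and 28.7 and 28.05% in the 1 month HKO. In the acute model it was 28.3, 28.8 and 28.7% with GFP and 21.9, 25.1 and 21.4% in acHKO. The mean level of Ddx39b-204 went from 8.83 TPM in control to 9.59 TPM in HKO at P10. It went from 5.76 to 5.46 TPM at 1 month and from 4.45 TPM with GFP to 3.01 TPM in acHKO. Of the 3816 retained-intron transcripts compared, 1.28% had a lower share without overlap in all 3. Ddx39b was not called in usage in any comparison (acute: diffSplice adjusted p = 0.963), and Ddx39b-204 was singled out after its values were seen. Ddx39b-204 ends inside intron 6: it holds the first 801 of its 2177 bases and no later exon, unlike Rnaseh2c-202, which reads through whole introns. The sequence where it runs into intron 6 is shown, with the first 2 intron bases in capitals.
Ddx39b end of exon 6 and start of intron 6, chr17:35249050-35249109 (+): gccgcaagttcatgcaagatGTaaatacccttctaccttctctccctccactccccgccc

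A coding transcript of Ddx39b, Ddx39b-202, reached high values in 2 single libraries. Its share was higher without overlap in the knockout libraries for P10 and for acute deletion, and the groups overlapped at 1 month. Ddx39b-202 measured 5.39 TPM in 1 month HKO replicate 1 and 4.50 TPM in acHKO replicate 3, and at most 0.099 TPM in the other 12 libraries. In these 2 libraries Ddx39b-201 held 34.6 and 33.4% of the gene, against 63.9 to 79.8% elsewhere. The sum of both transcripts was 11.1 to 14.9 TPM in the 1 month HKO and 8.31 to 9.83 TPM in acHKO. Only 30 of the 1740 words of 31 bases in Ddx39b-202 are its own. The shares of Dhx9 transcripts are likewise uncertain, since 2 of its coding transcripts have 0 words of their own.

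**Figure D4:**
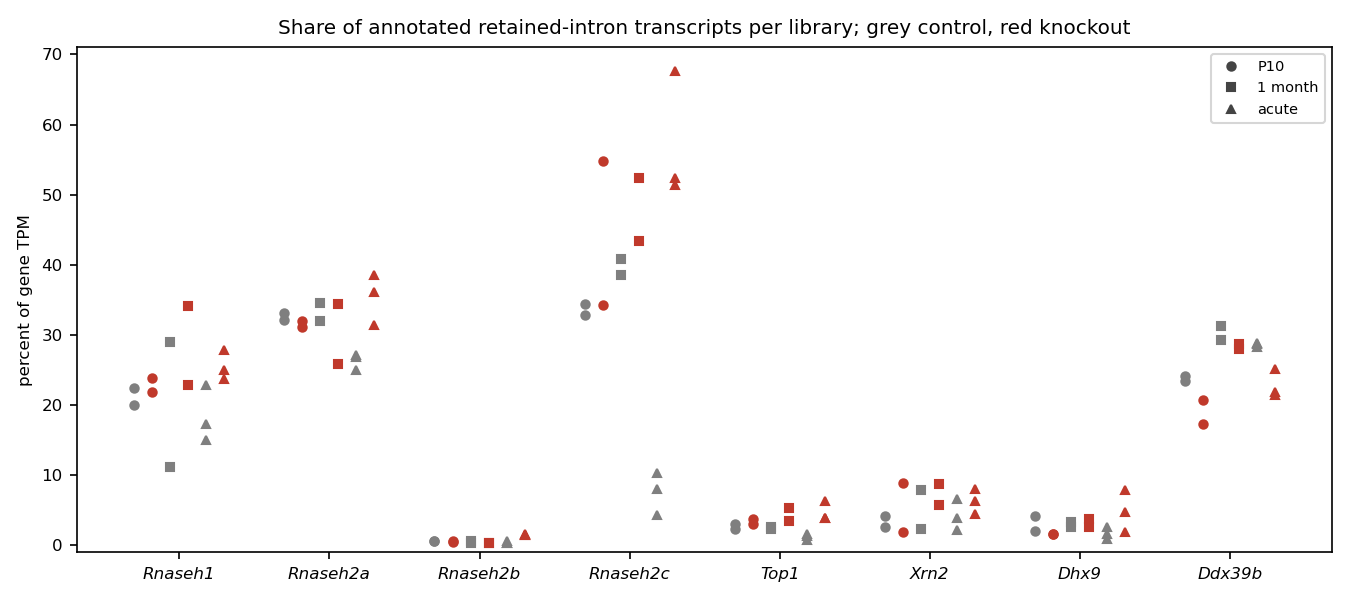
Summed share of annotated retained-intron transcripts in each gene's TPM, in percent, for the 8 genes that have such transcripts; each point is 1 library, shapes are the age or model and colours the group (grey, control; red, knockout). Rnaseh2c averages 7.54% with GFP and 57.2% in acHKO, and Ddx39b 28.6 and 22.8%.

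At P10 the 9 genes were mostly higher in the HKO libraries. Of the 9, 8 were higher in both HKO libraries than in both controls, against 62.6% of all 11736 genes (75.9% did not overlap in either direction). After median-ratio rescaling 7 of the 9 were, against 38.7% of all genes. Under both scalings 8 of the 9 lay above the median gene. None passed limma's test (0 called, 1 with an unadjusted p under 0.05), against 12.7% of all genes called and 10.8% called higher. All genes gave 1268 higher and 220 lower calls as deposited, and 715 and 699 after median-ratio rescaling. Relative to the median gene the 9 differences ran from -0.16 for Rnaseh2c to 0.48 for Xrn2, with a median of 0.15. Without HKO replicate 2, the library with Xist, 0 of the 9 were called as well, and the relative log2 difference of Rnaseh2b went from 0.14 to -0.00085. When TPM were rescaled without mitochondrially encoded genes, 4 were called higher (Top1, Rnaseh2a, Xrn2 and Ddx39b), as were 24.4% of all genes.

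Xrn2, the termination exonuclease, had the largest relative difference of the 9 at P10. It measured 17.2 and 17.8 TPM in control and 29.9 and 29.6 TPM in HKO libraries, which was 170% of the control mean. The log2 difference was 0.73 (SE 0.28, limma adjusted p = 0.11), or 0.48 relative to the median gene, and the adjusted p after median-ratio rescaling was 0.17. In the authors' deposited table its log2 fold change was 0.45 (SE 0.12, adjusted p = 0.00105), the 1 gene of the 9 called there, where 25.3% of 19182 genes were called. Dhx9 measured 22.2 and 24.5 TPM in control and 36.1 and 29.4 TPM in HKO libraries (log2 difference 0.47, SE 0.28, limma adjusted p = 0.282; 0.21 relative). Rnaseh2c was the exception, at 12.5 and 11.1 TPM in control and 11.7 and 13.7 TPM in HKO libraries. Beside these values, summed dividing-cell genes were 324.6 to 351.6 TPM in the P10 controls and 487.3 to 540.6 TPM in the HKO, with 8 of 20 called higher (3 after median-ratio rescaling), among them Plk1 (relative log2 difference 0.62). Summed cholangiocyte markers were 57.5 to 70.1 and 129.8 to 163 TPM, with 3 of 4 tested called higher (2 after median-ratio rescaling), led by Cldn4 (3.25). In the deposited TPM only Ttr (-1.47) and Alb (-1.01) of the hepatocyte markers were called, both lower. Of the Kupffer cell and macrophage markers only Cd68 (1.10) was called, higher. All of these were also called after median-ratio rescaling. Of the stellate and fibroblast markers Col1a1 (0.90) was called higher under both scalings, and Rgs5 (0.56) in the deposited TPM alone. Their part in the difference was not tested.

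At 1 month no gene of the 9 was called by limma (0 called, 0 with an unadjusted p under 0.05), against 6.86% of all genes. All genes gave 572 higher and 233 lower calls as deposited, and 785 and 902 after median-ratio rescaling. The authors' deposited table called 0 of the 9 too, against 13.5% of 18177 genes. Groups did not overlap for Rnaseh1 and Rnaseh2b, which were higher, and Rnaseh2c, which was lower, 3 of 9 against 36.6% of all genes. Rnaseh2b measured 2.38 and 2.65 TPM in control and 3.03 and 3.6 TPM in HKO libraries (log2 difference 0.29, SE 0.18, limma adjusted p = 0.456). It was the 1 gene called higher without mitochondrially encoded genes, where 20.5% of all genes were. Top1 measured 14.4 and 17.7 TPM in control and 9.80 and 15.1 TPM in HKO libraries (log2 difference -0.37, SE 0.24, limma adjusted p = 0.485). The HKO libraries differed from each other, and replicate 1 was below replicate 2 for 8 of the 9 genes. Examples were Xrn2 (10.1 and 18.5 TPM) and Dhx9 (7.45 and 13.5 TPM). Mitochondrially encoded genes took 50.6% of all TPM in replicate 1 and 35.8% in replicate 2, and the part of this was not tested. Transcript usage was called for 0 of the 4 testable genes at P10 and at 1 month, against 0.586% and 0.234% of 4265 genes. Cell type markers called higher in the 1 month HKO under both scalings included Spp1 (relative log2 difference 3.62), Cd68 (2.34), Marco (2.22), Rgs5 (1.31) and Col3a1 (1.27). Clec4f (1.89) and Vsig4 (1.60) were called higher in the deposited TPM alone. Of the hepatocyte markers only Hnf4a (-1.21) was called in the deposited TPM, lower under both scalings. The part of these markers was not tested.

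**Figure D5:**
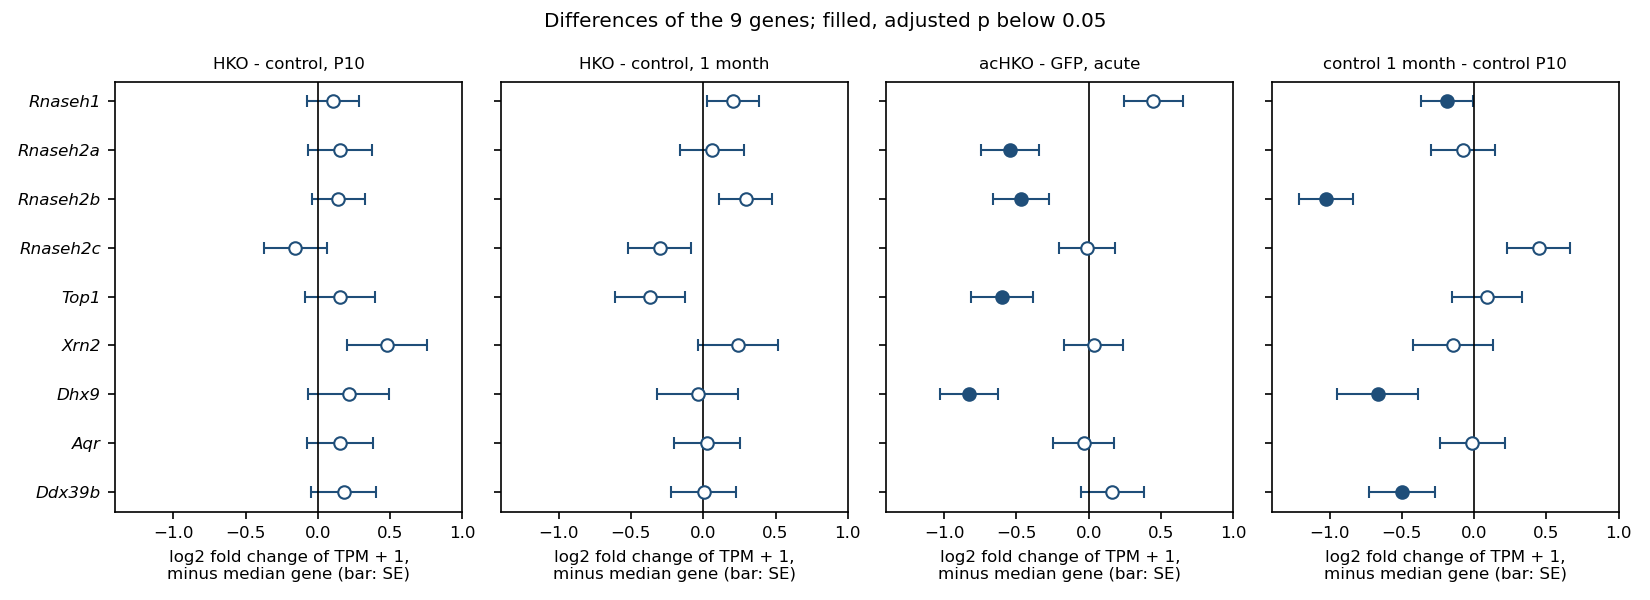
Log2 fold change of TPM + 1 minus that of the median gene (x axis) for each of the 9 genes in 4 comparisons; points are estimates, bars are standard errors and filled points passed limma's test (adjusted p below 0.05), which was made before the median gene was subtracted. Filled points appear in the acute comparison (Dhx9, Top1, Rnaseh2a, Rnaseh2b) and between control ages (Rnaseh2b, Dhx9, Ddx39b, Rnaseh1).

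The acute and 1 month responses differed for both called RNase H2 genes. The difference between the acute and the 1 month effect was -1.12 for Rnaseh2b (SE 0.23, limma adjusted p = 0.0100) and -0.97 for Rnaseh2a (SE 0.28, adjusted p = 0.0487) on the log2 scale, lower in the acute model. The median gene moved by -0.33, so that the relative differences were -0.80 and -0.64, and after median-ratio rescaling the adjusted p were 0.0141 and 0.0128. For Dhx9 it was -1.15 (SE 0.33, limma adjusted p = 0.0517; 0.0258 after rescaling), or -0.82 relative to the median gene. These 2 calls of 9 stand against 6.83% of all 11219 genes called and 5.82% called lower. All genes gave 113 higher and 653 lower calls as deposited, and 767 and 716 after median-ratio rescaling. Without 1 month control replicate 1 neither gene was called, and Rnaseh2b alone was called when 1 month control replicate 2, 1 month HKO replicate 2, GFP replicate 2, GFP replicate 3 or any acHKO library was left out. Without 1 month HKO replicate 1 there were 4 calls, with Dhx9 and Xrn2 added. Between the 1 month and the P10 effects 0 of the 9 were called by limma and 1, Top1, had an unadjusted p under 0.05 (log2 difference -0.78, SE 0.34, adjusted p = 0.291), against 2.8% of all genes. Top1 was called there when 1 month HKO replicate 2 was left out. In the acute minus 1 month contrast 10 of 20 dividing-cell genes were called lower. They were led by Ccnb2 (-2.36 relative to the median gene) and Ccnb1 (-1.78). The cholangiocyte marker Spp1 (-3.15), the macrophage marker Cd68 (-1.13) and the erythroid gene Alas2 (-1.27) were called lower too, the last 2 in the deposited TPM alone. In the 1 month HKO itself Ccnb2 (2.80), Ccnb1 (2.26), Spp1 (3.62) and Cd68 (2.34) were called higher than in control. A lower value in this contrast is therefore not by itself a fall in acHKO. The part of these genes in the difference was not tested. The models differ in age, line, delivery and time after deletion.

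In the controls alone, several of these genes were lower at 1 month than at P10. Rnaseh2b fell most, from 8.65 and 8.59 TPM to 2.38 and 2.65 TPM (log2 difference -1.45, SE 0.18, limma adjusted p = 8.1e-05; -1.03 relative). Dhx9 went from 22.2 and 24.5 to 8.99 and 12.0 TPM (-1.09, SE 0.28, adjusted p = 0.00883 by limma; -0.67 relative), and Ddx39b from 36.2 and 38.1 to 18.5 and 19.6 TPM (-0.93, SE 0.23, adjusted p = 0.00664 by limma; -0.50 relative). Rnaseh1 was the fourth gene called (-0.62, SE 0.18, limma adjusted p = 0.0169). Relative to the median gene Rnaseh1 was at -0.19, and after median-ratio rescaling its adjusted p was 0.607. These 4 of 9 stand against 44.3% of all genes called and 38.2% called lower. After median-ratio rescaling Rnaseh2b and Ddx39b were called lower, as were 19.1% of all genes, and Rnaseh2c was called higher (adjusted p = 0.00913), as were 26.1%. All genes gave 714 higher and 4480 lower calls as deposited, and 3004 and 2197 after median-ratio rescaling. Without mitochondrially encoded genes all but Rnaseh2c were called lower, 8 of 9 against 53.2% of all genes. Without P10 control replicate 1 the calls were Rnaseh2b and Dhx9, and without P10 control replicate 2 Rnaseh2b alone. Over the same step all 20 dividing-cell genes were called lower, their sum going from 324.6 to 351.6 TPM to 21.8 to 27.9 TPM, and so were all 7 Kupffer cell, 6 endothelial (5 after median-ratio rescaling) and 5 tested stellate markers. Summed Kupffer cell markers went from 207.7 to 220.1 TPM to 7.13 to 8.00 TPM; their part in the difference was not tested.

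Across the 6 groups, 8 of the 9 genes were highest in the P10 HKO, with Rnaseh2c highest with GFP, and 7 were lowest in acHKO, the exceptions being Rnaseh1 (GFP) and Rnaseh2c (1 month HKO). In length-corrected TPM Ddx39b was the most abundant in the P10 controls (37.1 ± 1.34, SD, n = 2), followed by Dhx9 (23.3 ± 1.64), Top1 (20.5 ± 0.370), Xrn2 (17.5 ± 0.411), Rnaseh2a (13.8 ± 1.21), Rnaseh2c (11.8 ± 1.02), Rnaseh2b (8.62 ± 0.0390), Rnaseh1 (5.07 ± 0.212) and Aqr (5.05 ± 0.342). The group means spanned 7.30-fold for Rnaseh2b, 4.25-fold for Dhx9 and 3.85-fold for Ddx39b. The order for Rnaseh2b was P10 HKO, P10 control, GFP, 1 month HKO, 1 month control and acHKO, and the ranges of neighbours overlapped only between GFP and 1 month HKO. For Dhx9 neighbours overlapped between P10 control and GFP and between the 2 groups of 1 month. For Ddx39b the last 4 groups, 1 month HKO, 1 month control, GFP and acHKO, overlapped in turn, and for Rnaseh2c, Aqr and Xrn2 4 of the 5 neighbouring pairs overlapped.

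The genes nearest in pattern to the 3 with the widest range were found by the root mean square distance between centred log2 values over the 14 libraries, among about 5611 genes of at least 5 TPM. For Rnaseh2b they were Ube2s (0.14), Gstm5 (0.15) and Clic4 (0.16), where the median gene lay at 0.59. For Dhx9 they were Ywhae (0.12), Pafah1b2 (0.15) and Syncrip (0.15), with a median of 0.52, and for Ddx39b they were Slirp (0.12), Ube2n (0.13) and Sept2 (0.13), with a median of 0.51. The libraries share their composition, so that genes can lie close for that reason alone.

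Other genes of R-loop biology were followed through 8 lists with 106 genes. In the acute model 25 of 82 tested were called lower and 0 higher, 30.5% against 34.8% of all genes (21 lower and 4 higher after median-ratio rescaling). Of other helicases that act on hybrids 6 of 13 were lower, among them Ddx41 (relative log2 difference -0.66), Ddx19b (-0.64), Ddx5 (-0.59) and Atrx (-0.26). Of THO and TREX packaging and export genes 7 of 16 were lower, led by Eny2 (-1.07), a subunit of the TREX-2 export complex, Fyttd1 (-0.75), an export adaptor, Sarnp (-0.36) and Thoc7 (-0.34). Of 22 termination and cleavage genes that work with XRN2 7 were lower, among them Rprd1b (-0.76), Clp1 (-0.73), Cpsf2 (-0.37) and Cpsf1 (-0.37). Of the 9 genes of the intron-binding complex around Aquarius 4 were lower: Isy1 (-0.43), Plrg1 (-0.30), Crnkl1 (-0.22) and Zfp830 (-0.20), of which Plrg1 was not called after median-ratio rescaling. Of the nucleases and RPA genes 1 of 9 was lower, Rpa3 (-0.43), the small subunit of the single-strand binding protein RPA. None of 7 other topoisomerases and partners, 3 BRCA and Fanconi genes and 3 sensing genes passed limma's test.

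In the HKO model few genes of these lists passed. At P10 8 of 98 were called higher and 0 lower by limma, 8.16% against 10.8% of all genes: the helicases Ddx21 (relative log2 difference 0.85), Ddx39 (0.57) and Blm (0.51), the topoisomerase Top2a (0.53), the editing enzyme Adar (0.50), the flap nuclease Fen1 (0.35), and the Fanconi genes Fanca (0.37) and Ube2t (0.31). After median-ratio rescaling 3 were called higher (Ddx21, Ddx39 and Adar), where 6.22% of all genes were. At 1 month 2 of 98 were called, both higher, Top2a (1.38, limma adjusted p = 0.00308) and Ube2t (0.70, adjusted p = 0.0205), 2.04% against 6.86% of all genes called. After median-ratio rescaling 6 were called higher and 2 lower, where 14.7% of all genes were called. Beside these, 12 of 20 dividing-cell genes were called higher at 1 month (15 after median-ratio rescaling), led by Ccnb2 (2.8). Their summed level was 21.8 to 27.9 TPM in the controls and 66.8 to 86.5 TPM in the HKO. In the controls 55 of 98 list genes were lower at 1 month than at P10, or 56.1% against 38.2% of all genes. After median-ratio rescaling 24 were lower and 9 higher, where 19.1% of all genes were lower and 26.1% higher. The genes called lower under both scalings included Top2a (-3.66), Fen1 (-1.70), Rpa2 (-1.64) and Rpa3 (-1.51).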

How the data were processed

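The authors deposited transcript TPM for the 14 libraries in 1 table. The submitters' processing notes name bcl2fastq 2.17.1.14, kallisto 0.46.0 and DESeq2 (no version given) and the mouse build GRCm38 (mm10). The authors also deposited 3 gene tables, whose headers name a mean normalized count (a signal), a log2 fold change and its error, a test score and p-values; the sources used here do not give how transcript estimates were turned into them. Libraries were stranded and polyA-selected per the labels' protocols.

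TPM were summed by gene. Genes averaging 1 TPM or more were tested, two-sided, by limma 3.58.1 (R 4.3.3; lmFit, then eBayes with trend) as log2(TPM + 1). The 8 P10 and 1 month libraries made 1 model (4 residual degrees of freedom), the 6 acute libraries another (4), and acute minus 1 month used all 14 (8). The scripts were tested on simulated data. The alternatives were another pseudocount (0.1), no filter, 3 rescalings, a replicate block, 1 fit of all 14 libraries and leaving out each library. Annotation and sequences came from GENCODE M21, where 136468 of 137767 transcripts matched in identifier and version; the gene version of Rnaseh2c there is ENSMUSG00000024925.11. The 9 genes and all lists were chosen with earlier results of these data known. Named are all 9 genes, up to 4 genes per other list with the smallest p among those that passed, and the 3 nearest patterns of 3 genes.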

Additional observations from a re-analysis of the deposited data

Results flagged for a closer look

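Rnaseh2a and Rnaseh2b are listed here because their effects in the acute model and at 1 month differed by the test of the difference itself. The acute minus 1 month difference relative to the median gene was -0.64 for Rnaseh2a and -0.80 for Rnaseh2b. The test was made on the log2 differences before that subtraction, -0.97 and -1.12. In the acute model all 3 acHKO libraries were below all 3 GFP libraries for both genes, while at 1 month the Rnaseh2a groups overlapped and both HKO libraries were above both controls for Rnaseh2b. Groups of 2 and 3 libraries are too small for a test of single libraries.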

How the results depend on the processing

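Rescaling without mitochondrially encoded genes gave 4 called genes at P10, 1 at 1 month, 1 in the acute model and 8 between control ages. A replicate block gave 1 call at P10 (Xrn2, limma adjusted p = 0.0141), 7 between control ages and 1 in acute usage, and it left the other counts within 1.5 times. Whether same-numbered libraries form pairs was not settled. Their deviations correlated at 0.01 at P10, 0.28 at 1 month and -0.003, 0.28 and 0.24 in the acute model. With 2 libraries per group the crossed pairs can only give the same value with the other sign, so these values cannot decide it. In the acute model acHKO replicate 2 with GFP replicate 3 gave -0.30, and acHKO replicate 3 with GFP replicate 2 gave -0.22. For acute minus 1 month, no filter and rescaling over protein-coding genes each gave 1 call. Leaving out 1 library gave 4 to 6 calls in the acute model, 1 to 3 between control ages, 0 to 1 for 1 month minus P10, 0 to 4 for acute minus 1 month, 1 to 2 in acute usage, and 0 to 0 at P10 and 1 month.

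Of uncalled genes, these changed sign on the relative log2 scale. Without the filter, where the median gene is near 0 TPM, Rnaseh2c at P10 was 0.075, acute Xrn2 -0.33 and acute Ddx39b -0.20. Acute Rnaseh2c was 0.033 with the pseudocount 0.1, 0.016 after median-ratio rescaling and 0.030 without mitochondrial genes; Ddx39b at 1 month was -0.015 over protein-coding genes and acute Xrn2 -0.016 in 1 fit of all libraries. Leaving out libraries moved Rnaseh2b at P10 from -0.00085 to 0.29, at 1 month Aqr from -0.074 to 0.13, Rnaseh1 from -0.016 to 0.42, Dhx9 from -0.23 to 0.17 and Ddx39b from -0.031 to 0.029, and in the acute model Rnaseh2c from -0.043 to 0.027, Aqr from -0.10 to 0.0069 and Xrn2 from -0.011 to 0.10. The largest share difference of Dhx9 at P10 ran from -0.58 to 5.33 points and of Ddx39b at 1 month from -30.5 to 2.37 points. The cause was not tested. With 2 or 3 libraries per group and unknown depth, differences smaller than the spread between libraries could not be detected.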
